A study of Mus musculus with 6 samples.

Results

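To describe the lymphocytes of the infarcted heart, 9 genes that mark T and B cells were examined in RNA-seq of cardiac tissue from WT and *Zeb2* cKO mice. The rows of the count table were taken by Ensembl identifier for 5 T cell genes (*Cd3e*, *Cd3d*, *Cd4*, *Cd8a* and *Lck*) and 4 B cell genes (*Cd79a*, *Cd79b*, *Ms4a1* and *Ighm*), and all 9 were found among the 38293 genes of the table. Only 4 of the 9, *Cd4*, *Cd79b*, *Ms4a1* and *Ighm*, had enough counts to be tested. None of the 9 passed a test of the difference between the genotypes, and 7 of the 9 were highest in the same WT library.

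The study deleted *Zeb2*, a zinc finger repressor of transcription, in cardiomyocytes and asked what its loss does to the heart after myocardial infarction (MI). All 6 mice were adult and on the C57BL/6J background (backcrossed), and all received a permanent occlusion of the left anterior descending artery, so that sham hearts are not part of the comparison. The WT mice (3 libraries, 1 mouse each), called *Zeb2* fl/fl in the methods, carried floxed *Zeb2* alleles without Cre. The *Zeb2* cKO mice (3 libraries, 1 mouse each) carried the same alleles and a Cre recombinase under the cardiac *Myh6* promoter, a promoter active in cardiomyocytes and not in lymphocytes. Tissue was taken 14 days after MI, from the border of the infarct by the sample labels and from the remote zone by the methods.

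T cells recognise peptides through a receptor whose signal leaves the surface through the CD3 chains and the kinase LCK, with CD4 or CD8 as coreceptor. B cells recognise antigen through membrane immunoglobulin, IgM in naive cells, which signals through the CD79A and CD79B chains. In the heart both are minor populations beside macrophages and are known to enter the myocardium after an infarct. In bulk tissue, fewer cells of a type and less RNA per cell cannot be told apart.

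The libraries held 37288174 to 51136331 counts, of which 60.55% to 67.03% came from mitochondrially encoded genes. Levels are given as CPM, counts per 1000000 of a library size normalized by edgeR's TMM method, and 1 count was worth 0.0186 to 0.0265 CPM. *Zeb2*, the targeted gene, was at 61.3, 116 and 71.9 CPM in WT 1, 2 and 3 and at 59.5, 72.5 and 66.4 CPM in *Zeb2* cKO 1, 2 and 3. Its log2 difference between the genotypes, *Zeb2* cKO minus WT, was -0.33 ± 0.25 (standard error). Adjusted after Benjamini and Hochberg, the p of edgeR's quasi-likelihood test was 0.957, and without WT 2 the difference was -0.0059. The level of *Zeb2* in whole tissue therefore did not separate the groups as labelled. Library WT 2 stood apart: the first principal component held 59.1% of the variance and placed it at 74.5, with the other libraries between -24.6 and -3.28. Of the 14746 genes tested, 35.15% were highest in WT 2.

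The promoter windows of 3 T cell genes and 1 B cell gene are shown. *Cd3d*, *Cd3e* and *Cd8a* shared a high level in WT 2, and *Cd79a* did not. The high level was not limited to the T cell genes shown. WT 2 was also 3.87 times the next library for *Lck*, whose windows are not shown, 2.09 times for *Cd79b* and 2.04 times for *Ighm*. ZEB2 is known to bind E2 boxes, and capitals mark the letters CACCTG or their reverse complement CAGGTG. The windows are RefSeq sequence of build GRCm38.p6, 5′ to 3′ on the strand of the gene, up to 250 bases before the start site and without bases that Gencode M21 places inside the gene. They lie at chr9:44981536-44981785 on the plus strand (*Cd3d*), chr9:45009628-45009861 on the minus strand (*Cd3e*), chr6:71373177-71373426 on the plus strand (*Cd8a*) and chr7:24897247-24897380 on the plus strand (*Cd79a*).
Cd3d: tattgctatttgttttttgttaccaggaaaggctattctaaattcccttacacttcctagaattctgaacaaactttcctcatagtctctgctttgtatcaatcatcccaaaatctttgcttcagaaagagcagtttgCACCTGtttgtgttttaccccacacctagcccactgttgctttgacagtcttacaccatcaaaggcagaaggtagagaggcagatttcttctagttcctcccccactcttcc
Cd3e: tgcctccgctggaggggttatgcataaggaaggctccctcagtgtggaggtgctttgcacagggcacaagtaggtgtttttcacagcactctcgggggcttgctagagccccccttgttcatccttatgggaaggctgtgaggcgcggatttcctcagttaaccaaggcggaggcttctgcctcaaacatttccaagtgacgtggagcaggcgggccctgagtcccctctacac
Cd8a: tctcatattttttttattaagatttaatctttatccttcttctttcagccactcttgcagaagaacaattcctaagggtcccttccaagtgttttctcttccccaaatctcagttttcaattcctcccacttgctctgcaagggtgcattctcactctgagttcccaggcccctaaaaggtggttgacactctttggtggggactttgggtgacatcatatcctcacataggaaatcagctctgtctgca
Cd79a: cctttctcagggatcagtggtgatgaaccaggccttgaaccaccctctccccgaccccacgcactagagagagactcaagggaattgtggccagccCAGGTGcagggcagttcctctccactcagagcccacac

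A window was found for 5 of the 9 markers, the 4 shown and *Lck*, which has 2. An E2 box began 112 bases before the start site of *Cd3d* and 154 bases before that of *Cd79a*, and 1 lay in the second *Lck* window, 63 bases before its start. The distance for *Cd79a* counts to the start site of the uncut window, which lies inside the gene as placed by Gencode M21. The box is therefore nearer to the end of the 134 bases shown. The windows of *Cd3e* and *Cd8a* held none. Among 32851 mouse promoter windows of 250 bases, 17.2% held an E2 box, searched on both strands. The letters TCAAAG of a TCF/LEF site occurred 2 times in the *Cd3d* window and in 13.8% of all windows. The octamer ATGCAAAT, a motif of immunoglobulin promoters, was in none of these windows and in 1.6% of all. These are matches of letters and were not tested as sites of binding.

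*Cd3e* and *Cd3d* encode signalling chains of the T cell receptor complex. They are neighbours on chromosome 9, *Cd3d* from 44981786 to 44987339 on the plus strand and *Cd3e* from 44998740 to 45009627 on the minus strand (GRCm38). *Cd3e* had 0, 10 and 1 counts in WT 1, 2 and 3 and 1, 1 and 3 counts in *Zeb2* cKO 1, 2 and 3. *Cd3d* had 0, 13 and 0 counts in the WT libraries and 6, 1 and 2 counts in the *Zeb2* cKO libraries. Outside WT 2 both genes were near the limit of detection. The floor for a count of 0 was set at 3 counts, or 0.0558 to 0.0796 CPM depending on the library, which is lower than the upper end of the two-sided 95% intervals given here and plotted. WT 2 had 0.228 CPM of *Cd3e* with a 95% exact Poisson interval of 0.109 to 0.419, and the next library, *Zeb2* cKO 3, had 0.0558 CPM with an interval of 0.0115 to 0.163. These intervals cover counting error only.

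*Cd8a*, the CD8 coreceptor chain of cytotoxic T cells (chromosome 6, 71373427 to 71379173, plus strand), had 2, 21 and 0 counts in the WT libraries and 0, 2 and 4 counts in the *Zeb2* cKO libraries. Its level in WT 2 was 6.43 times that of the next library, and the other WT libraries lay within the range of the *Zeb2* cKO libraries. *Lck*, the kinase that starts signalling from CD4 and CD8 (chromosome 4, 129548344 to 129573641, minus strand), had 2, 31 and 7 counts in the WT libraries and 8, 6 and 7 counts in the *Zeb2* cKO libraries. WT 2 was 3.87 times the next library, and the spread in the *Zeb2* cKO group was small (0.143 ± 0.0153 CPM, mean ± SD, n = 3) beside that in the WT group (0.314 ± 0.346 CPM, SD, n = 3).

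*Cd4*, the coreceptor of helper T cells (chromosome 6, 124864692 to 124888221, minus strand), was the most counted T cell marker, with 9, 24 and 15 counts in the WT libraries and 22, 6 and 18 counts in the *Zeb2* cKO libraries. Its level was 0.392 ± 0.154 CPM (SD, n = 3) in the WT group and 0.304 ± 0.153 CPM (SD, n = 3) in the *Zeb2* cKO group, and the groups overlapped. The log2 fold change was -0.36, with a standard error of 0.49 and a 95% interval of -1.53 to 0.81 (adjusted p = 0.957, edgeR's quasi-likelihood test; exact permutation test, two-sided p = 0.5, where the smallest p that 3 mice against 3 allow is 0.1). WT 2 was highest for *Cd4* too, but by 1.24 times the next library, *Zeb2* cKO 1. In WT 2 there were 21 *Cd8a* counts beside 24 *Cd4* counts, and in the other 5 libraries there were 8 beside 70. This comparison was made after the values were seen and was not tested. In those 5 libraries *Cd3e* and *Cd3d* had only 6 and 9 counts. Whether the *Cd4* counts there came from T cells was not tested, so this is not a ratio of T cell types.

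**Figure D1:**
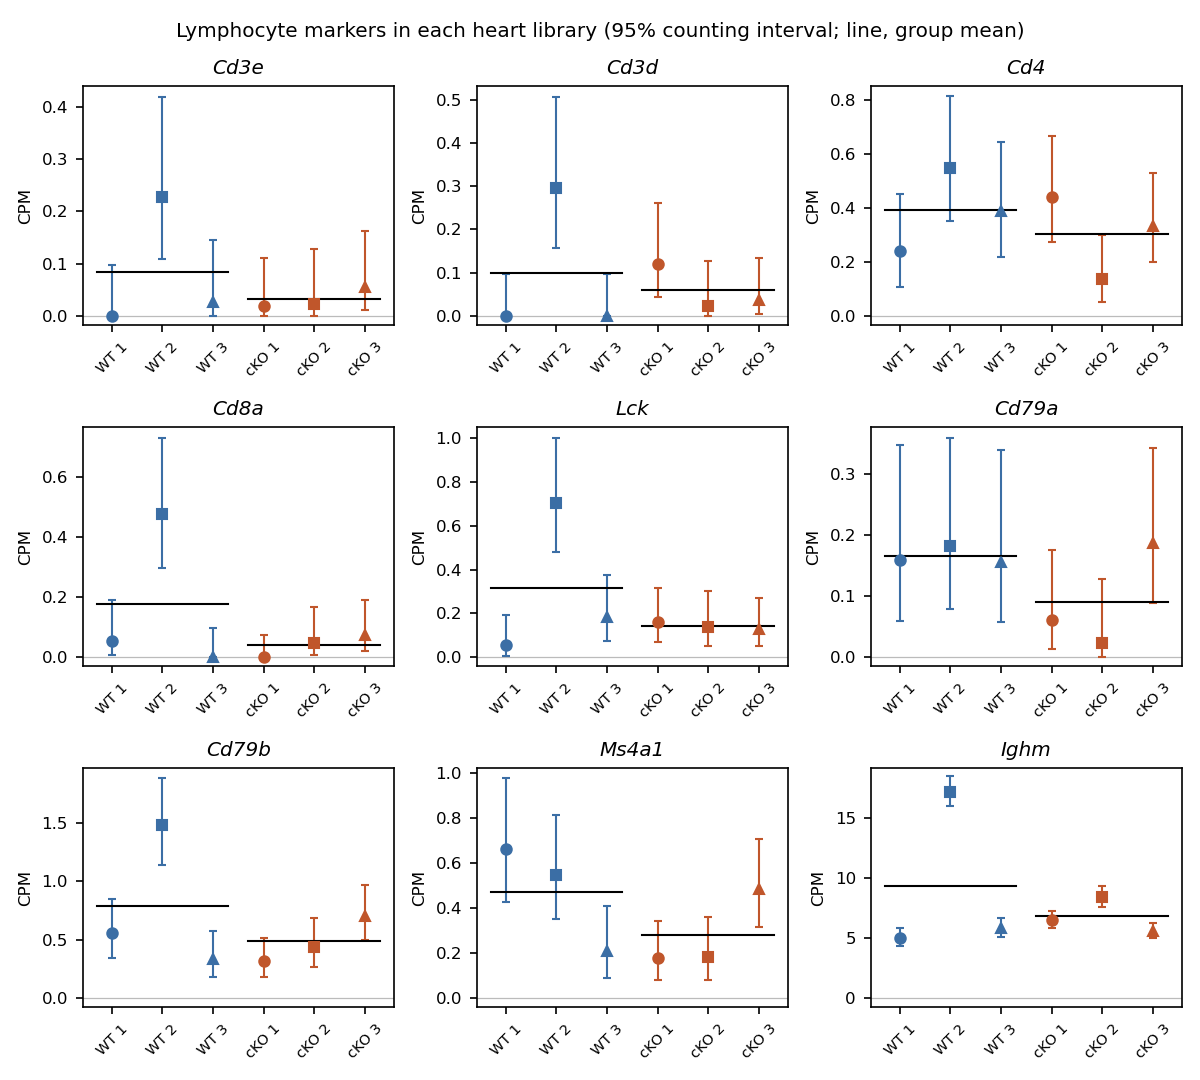
Level of each marker in each library in CPM (y axis, linear, its own scale in each panel), with 95% exact Poisson intervals of the count. Blue points are WT and orange points *Zeb2* cKO libraries, and lines are group means. WT 2 is the highest library for the 5 T cell genes, *Cd79b* and *Ighm*, whereas WT 1 is highest for *Ms4a1* and *Zeb2* cKO 3 for *Cd79a*.

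*Cd79a* and *Cd79b* encode the signalling chains of the B cell receptor. *Cd79a* (chromosome 7, 24897381 to 24902197, plus strand) had 6, 8 and 6 counts in the WT libraries and 3, 1 and 10 counts in the *Zeb2* cKO libraries. Its level was nearly even among the WT libraries (0.166 ± 0.0142 CPM, SD, n = 3) and varied more among the *Zeb2* cKO libraries (0.0897 ± 0.0855 CPM, SD, n = 3), the highest of which was above all WT libraries. *Cd79b* (chromosome 11, 106311341 to 106314762, minus strand) had 21, 65 and 13 counts in the WT libraries and 16, 19 and 38 counts in the *Zeb2* cKO libraries. WT 2 was highest, at 2.09 times *Zeb2* cKO 3, and WT 1 and WT 3 lay within the range of the *Zeb2* cKO libraries. The log2 fold change of *Cd79b* was -0.70 ± 0.59 (standard error, with a 95% interval of -2.1 to 0.69 and an adjusted p of 0.957 in edgeR's quasi-likelihood test; exact permutation p = 0.6).

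*Ms4a1*, which encodes CD20, a surface protein of B cells before the plasma cell stage (chromosome 19, 11249675 to 11266241, minus strand), had 25, 24 and 8 counts in the WT libraries and 9, 8 and 26 counts in the *Zeb2* cKO libraries. WT 1, WT 2 and *Zeb2* cKO 3 were high, at 0.664, 0.546 and 0.484 CPM, and the other libraries lay between 0.18 and 0.208 CPM, so that high and low libraries occurred in both groups. For *Ms4a1* the log2 fold change came to -0.72 ± 0.57 (standard error, with a 95% interval of -2.07 to 0.62 and an adjusted p of 0.957 in edgeR's quasi-likelihood test; exact permutation p = 0.2). Among the 4 tested markers it was the 1 with the smallest p, 0.243 before adjustment.

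*Ighm*, the heavy chain gene of IgM (chromosome 12, 113418558 to 113422730, minus strand), was the most abundant marker, with 189, 753 and 224 counts in the WT libraries and 324, 365 and 300 counts in the *Zeb2* cKO libraries. In CPM these were 5.02, 17.1 and 5.83 in WT and 6.47, 8.41 and 5.58 in *Zeb2* cKO hearts. WT 2 was 2.04 times the next library, and both other WT libraries were below *Zeb2* cKO 1 and 2. On the log2 scale the difference was -0.46 ± 0.47 (standard error, with a 95% interval of -1.58 to 0.66 and an adjusted p of 0.957 in edgeR's quasi-likelihood test; exact permutation p = 0.9). Without WT 2 the sign was the opposite, at 0.33 ± 0.19 (standard error), and edgeR's adjusted p was 0.9996.

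Per kilobase of annotated exon, *Ighm* was the highest of the 9 markers at 4.28 ± 2.44 CPM (mean ± SD over 6 libraries), and *Cd79b* followed at 0.447 ± 0.305 CPM. Both stood clear of the markers below them in every library. *Cd79a* (0.0877 CPM per kilobase), *Cd4* (0.0863), *Lck* (0.0779), *Ms4a1* (0.061), *Cd3d* (0.0437), *Cd8a* (0.0299) and *Cd3e* (0.0144) came next, and each overlapped its neighbour in this order over the libraries. The exons of all annotated isoforms were counted in these lengths. A stretch of 109 bases of *Cd3d* (6.74% of its longest transcript) and 298 bases of *Cd79a* (20.5%) were near-identical to transcripts of other genes, which makes their counts uncertain where reads fell there. The genes matched by *Cd3d* include *Zeb2* and *Il7r*, both also highest in WT 2, and that of *Cd79a* is *Gm32220*. Whether reads of these genes entered the counts was not tested. *Cd3e* shares 135 exon bases with *Gm48719* on the opposite strand, and whether the counting used strand is not stated.

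Across the whole table, 0 of the 14746 tested genes had an adjusted p under 0.05 by edgeR (0%), and DESeq2 called 1, *Slc46a2*, which is not among the 9 markers. An unadjusted p under 0.05 was reached by 280 genes in edgeR (1.90%) and by none of the 9 markers, either with the filter on low counts or without it, where all 9 were fitted. Without the filter the adjusted p of the markers lay between 0.858 and 0.923, and DESeq2 gave 0.995 for each. The groups did not overlap in CPM for 940 tested genes (6.37%) and for none of the 9 markers.

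The 9 log2 fold changes all lay below 0. The values of the 5 markers that were not tested were -1.34 for *Cd3e*, -0.77 for *Cd3d*, -2.13 for *Cd8a*, -1.17 for *Lck* and -0.81 for *Cd79a*, each without a p. The median was -1.17 over the 5 T cell markers and -0.71 over the 4 B cell markers, beside -0.0068 over all tested genes, of which 51.4% lay below 0. Without WT 2, *Lck* (0.27), *Cd79b* (0.14) and *Ighm* (0.33) lay above 0, and *Cd79a* (-0.72), *Ms4a1* (-0.59) and *Cd4* (-0.03) below 0. The 2 WT libraries left then held 1 count of *Cd3e*, 0 of *Cd3d* and 2 of *Cd8a*, too few for a fold change of these genes. The medians without WT 2 were -0.23 over the B cell markers and 0.58 over the T cell markers. The T cell median includes the fitted values of these 3 genes and is that of *Cd8a*, so it rests on 2 WT counts. It was the same with *Cd3d* set to the floor of 3 counts over both WT libraries.

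**Figure D2:**
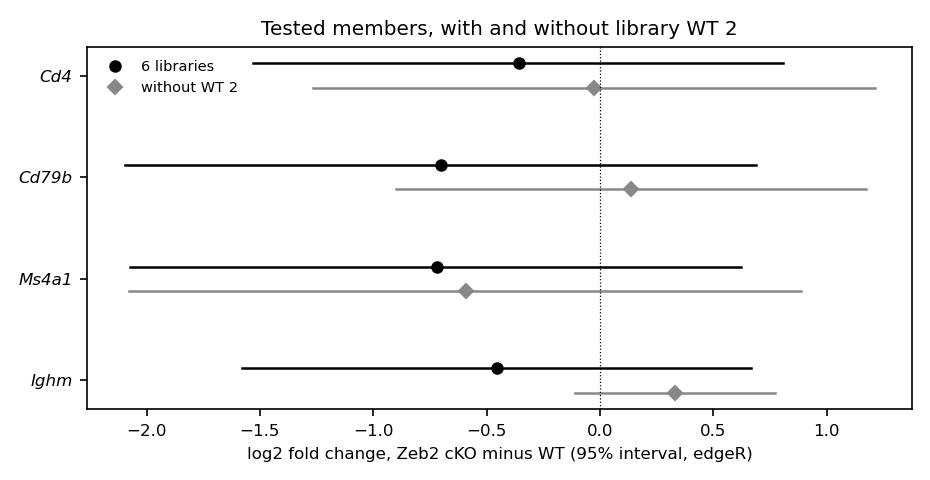
Log2 fold change of the 4 tested markers, *Zeb2* cKO minus WT (x axis), with 95% intervals from edgeR. Black circles use 6 libraries and grey diamonds leave out WT 2. All intervals span 0, and without WT 2 the values of *Cd79b* (0.14) and *Ighm* (0.33) lie above 0.

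Other T cell genes were examined as a list of 30, and 8 of them were counted often enough to be tested. Of the 30, 23 were highest in WT 2, among them the remaining CD3 chain *Cd3g* with 1, 26 and 2 counts in the WT libraries and 6, 2 and 2 counts in the *Zeb2* cKO libraries. *Cd8b1*, the partner chain of *Cd8a*, had 1, 21 and 1 counts in WT and 1, 2 and 2 counts in *Zeb2* cKO hearts. The receptor constant gene *Trac* had 2, 14 and 6 counts in WT and 8, 4 and 5 counts in *Zeb2* cKO hearts. *Cd28* and *Cd247* had no such excess, and *Cd28* held 98 to 126 counts in every library. None of the 8 tested genes had an adjusted p under 0.05, and 1, *Il7r*, the receptor for interleukin 7, had an unadjusted p under 0.05. *Il7r* had 11, 63 and 11 counts in the WT libraries and 11, 9 and 11 counts in the *Zeb2* cKO libraries, and the groups did not overlap in CPM. This gave -1.68 ± 0.7 on the log2 scale (standard error; adjusted p = 0.957, edgeR's quasi-likelihood test), and -0.45 without WT 2. The next in order of p were *Cd247*, a signalling chain of the receptor, at 0.49 and the costimulator *Icos* at -0.58 (-0.35 without WT 2). Of the 8 tested genes 4 lay below 0 and 4 above, with a median of -0.04. The median over all 30 genes, 22 of them under the filter on low counts, was -0.60, and 0.24 without WT 2.

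Of the 21 genes of T cell receptor signalling, 14 were tested, 11 of them with a value below 0 and 3 above, and none passed. *Rasgrp1*, an activator of RAS downstream of the receptor, had the smallest p with a log2 fold change of -1.09 (unadjusted p = 0.0743, edgeR's quasi-likelihood test). *Csk*, which inhibits LCK, was at -0.39 and *Ptpn22*, a phosphatase that restrains the receptor, at -1.22. Without WT 2 *Rasgrp1* was at -0.32, *Csk* at -0.25 and *Ptpn22* at -0.05. The median over the 14 tested genes was -0.24. Over all 21 genes, 7 of them under the filter on low counts, it was -0.70, and -0.04 without WT 2. Of the 21 genes, 15 were highest in WT 2.

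The other B cell genes numbered 30, of which 27 were in the table and 14 were tested. None had an unadjusted p under 0.05, 11 lay below 0 and 3 above, and the median over all 27 genes was -0.71, and -0.04 without WT 2. They did not share 1 pattern. The B lineage factor *Pax5* had 6, 7 and 8 counts in WT and 2, 3 and 9 counts in *Zeb2* cKO hearts, without an excess in WT 2. The kappa light chain *Igkc* had 20, 143 and 20 counts in WT and 40, 25 and 45 counts in *Zeb2* cKO hearts. *Cd22*, an inhibitory coreceptor, had the smallest p with 25, 82 and 10 counts in WT and 12, 11 and 23 counts in *Zeb2* cKO hearts (log2 fold change -1.59, unadjusted p = 0.0559, edgeR's quasi-likelihood test). *Cd72* (-1.33) and *Cd180* (-1.01) followed, and without WT 2 these 3 were at -0.57, -0.03 and 0.27. In all, 16 of the 27 genes were highest in WT 2.

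**Figure D3:**
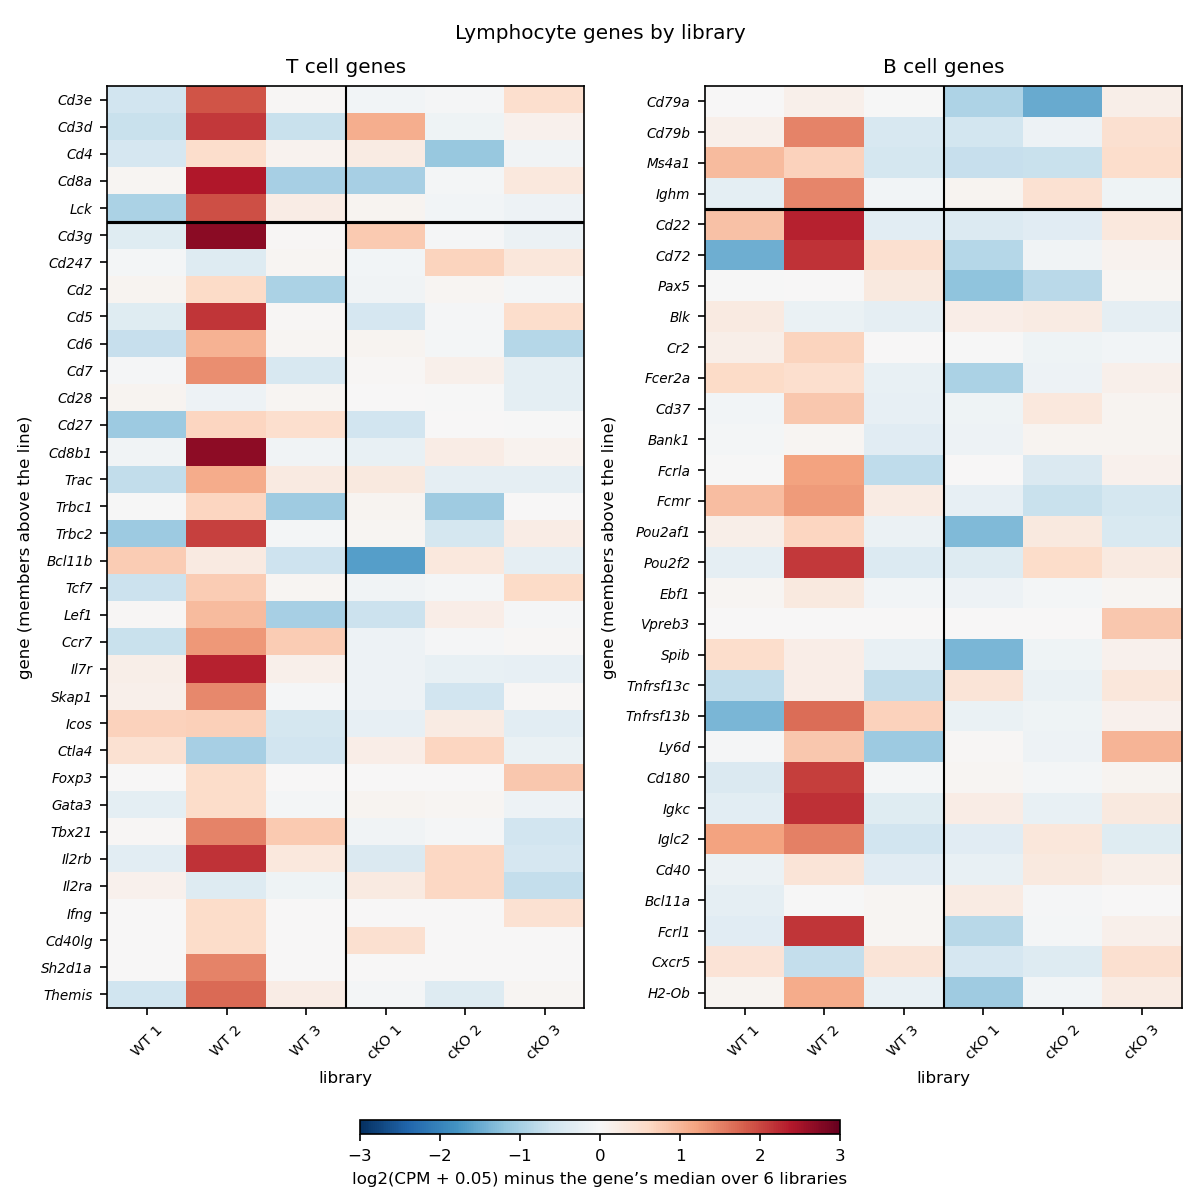
Level of T cell genes (left) and B cell genes (right) in each library, as log2(CPM + 0.05) minus the median of the gene over 6 libraries (colour, red high and blue low). Rows are genes with the markers above the horizontal line, and columns are libraries with WT left of the vertical line. WT 2 is the highest library for 23 of the 30 other T cell genes and for 16 of the 27 other B cell genes, of which 1 of each list is not drawn, and many pale rows hold only a few counts.

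All 16 genes of B cell receptor signalling were tested, and none passed. The smallest p-values were those of *Plcg2* (-0.33), a phospholipase of the pathway, *Dapp1* (-0.50), an adaptor, and *Syk* (-0.31), the kinase recruited by CD79. Most of these genes are also used by myeloid cells, and 13 of the 16 were highest in WT 2. The list median was -0.41, and -0.01 without WT 2, where *Dapp1* was at -0.20. Of 13 plasma cell genes 7 were tested and none had an unadjusted p under 0.05. Of the 13, 6 were highest in WT 2, 7 lay below 0 and 6 above, and the median was -0.11, or 0.06 without WT 2. The joining chain *Jchain* had 10, 112 and 9 counts in WT and 25, 26 and 12 counts in *Zeb2* cKO hearts, and the IgA heavy chain *Igha* had 30, 235 and 18 counts in WT and 48, 6 and 37 counts in *Zeb2* cKO hearts. WT 2 was high for both, their log2 fold changes were -1.23 and -1.88, and without WT 2 they were 0.80 and -0.06. *Sdc1*, a surface proteoglycan of plasma cells and other cells, was at -0.96, and at 0.11 without WT 2. The plasma cell factors *Irf4* (0.28, and 0.68 without WT 2) and *Prdm1* (0.11, and 0.04 without WT 2) lay above 0. *Ighg1*, an IgG heavy chain, had counts only in *Zeb2* cKO 1 (5) and *Zeb2* cKO 2 (1), and *Ighg2c*, another, had 6, 12 and 17 counts in WT and 1, 30 and 12 counts in *Zeb2* cKO hearts.

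Markers of neighbouring cell types were summed in each library to set beside these values. The 12 NK cell genes, of which 11 were under the filter, summed to 4.01 CPM in WT 2 and to between 0.637 and 1.17 CPM in the other libraries, and the 1 that was tested, the granzyme *Gzma*, had a log2 fold change of -0.27, and of 0.06 without WT 2. The 10 pan-leukocyte genes, *Ptprc* (CD45) among them, were all highest in WT 2, with sums of 57.1, 230.8 and 81.1 CPM in the WT libraries and 66.8, 72.1 and 77.4 CPM in the *Zeb2* cKO libraries. The 12 macrophage genes summed to 913.8 CPM in WT 2 and to between 237.1 and 326.2 CPM in the others, and the 6 fibroblast genes to 4739 CPM in WT 2 and to between 969.4 and 1421 CPM. The 8 cardiomyocyte genes went the other way, with 11500 CPM in WT 2 and 17560 to 22280 CPM in the others. No gene of the leukocyte, macrophage, fibroblast or cardiomyocyte lists was at 0 in any library. The part of these differences in the lymphocyte values was not tested.

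Among the smaller lists, the 10 dendritic cell genes summed to 29.9 CPM in WT 2 and 18.8 to 22.2 CPM in the others, the 8 granulocyte genes to 5.42 CPM and 1.82 to 3.51 CPM, and the 4 endothelial genes to 266.6 CPM and 355.4 to 419.6 CPM. Genes of immature lymphocytes and thymus were at or near 0 where they define those cells: *Rag1*, *Ptcra* and *Foxn1* had no count in any library. The 3 genes of that list that were tested, *Arpp21* (0.94), *Cd1d1* (0.43) and *Ccl25* (-0.19), had no adjusted p under 0.05. *Arpp21* was higher in the *Zeb2* cKO group without overlap (unadjusted p = 0.0564, edgeR's quasi-likelihood test). Without WT 2, *Arpp21* was at 0.65, *Ccl25* at -0.19 and *Cd1d1* at 0.78 (unadjusted p = 0.0395 for *Cd1d1*, same test). Among 14 genes of lymphocyte homing, 9 were tested. *Cxcr4*, the receptor for CXCL12, had an unadjusted p of 0.0471 with a log2 fold change of -0.34 (adjusted p = 0.957, edgeR's quasi-likelihood test). The groups did not overlap for *Cxcr4*, and its value without WT 2 was -0.23. *Ccl21a*, a chemokine of lymphatic vessels that attracts T cells, had 206, 1039 and 215 counts in WT and 304, 168 and 156 counts in *Zeb2* cKO hearts (log2 fold change -1.44, and -0.37 without WT 2), and *Cxcl12* was at 0.44 (0.27 without WT 2). The median over the homing genes was -0.44, and -0.05 without WT 2. Of the leukocyte, macrophage, dendritic, granulocyte, fibroblast, endothelial and cardiomyocyte genes, 1 had an unadjusted p under 0.05, the cardiomyocyte peptide gene *Nppa* (log2 fold change -1.42, or -0.93 without WT 2, adjusted p = 0.957, edgeR's quasi-likelihood test).

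**Figure D4:**
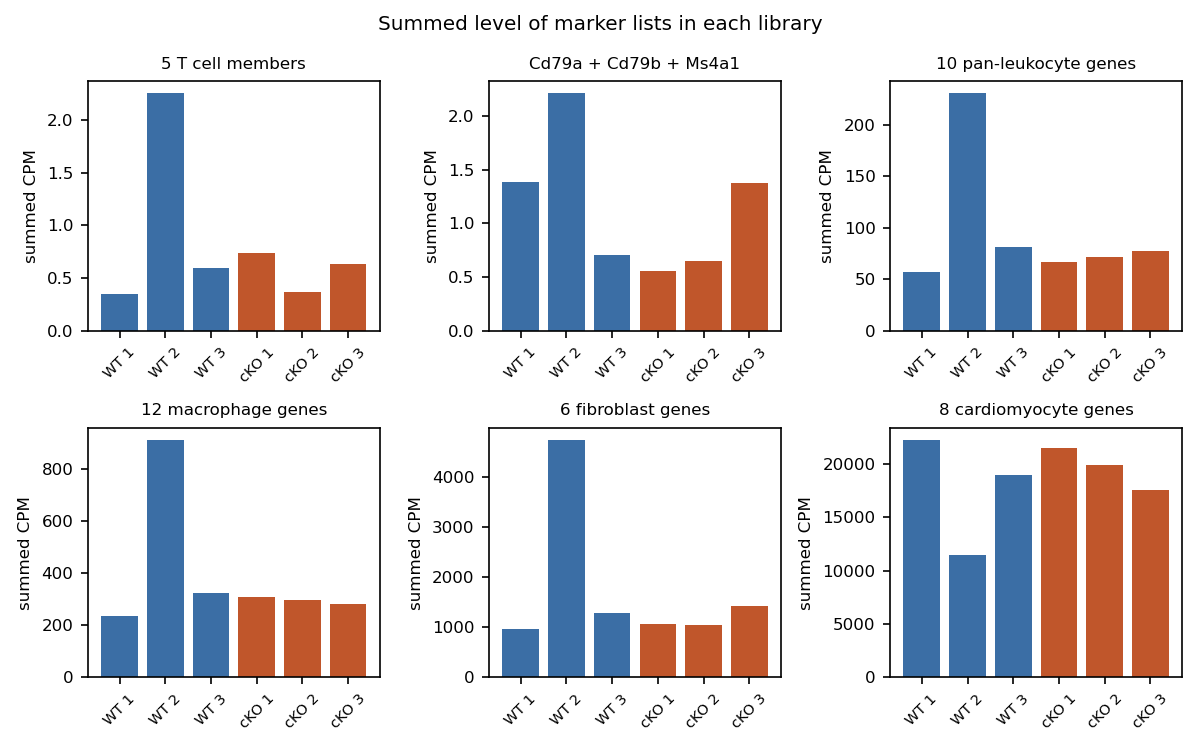
Summed CPM (y axis, from 0, its own scale in each panel) of marker lists in the 6 libraries, blue WT and orange *Zeb2* cKO. The T cell markers have 1 high library, WT 2 at 2.25 CPM, as the leukocyte, macrophage and fibroblast lists have, whereas *Cd79a*, *Cd79b* and *Ms4a1* together are also high in WT 1 (1.38 CPM) and *Zeb2* cKO 3 (1.38 CPM), and the cardiomyocyte list is lowest in WT 2.

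The 5 T cell markers together reached 0.345, 2.25 and 0.599 CPM in the WT libraries and 0.739, 0.369 and 0.633 CPM in the *Zeb2* cKO libraries. Set against CD45, they gave 37.5, 57.8 and 41.4 counts per 1000 *Ptprc* counts in WT and 62.0, 30.1 and 52.9 in *Zeb2* cKO hearts. WT 2 lay within the range of the *Zeb2* cKO libraries on this scale, but this position depends on *Cd4*. Outside WT 2 there were 70 counts of *Cd4*, beside 6 of *Cd3e*, 9 of *Cd3d*, 8 of *Cd8a* and 30 of *Lck*. WT 2 was 2.7 times the next library for *Ptprc*, but 4.08 times for *Cd3e*, 6.43 for *Cd8a* and 3.87 for *Lck*. For *Cd3d* it was 2.47 times and for *Cd4* 1.24 times the next library. *Cd79a*, *Cd79b* and *Ms4a1* together gave 149.9, 56.6 and 48.6 counts per 1000 *Ptprc* counts in WT and 46.9, 52.7 and 115.1 in *Zeb2* cKO hearts, with WT 1 and *Zeb2* cKO 3 above the others. These ratios were chosen after the values were seen and were not tested.

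The genes whose levels followed the markers most closely over the 6 libraries were found by Pearson's r on log2 CPM, with the mean of the tested markers. For T cells this profile was *Cd4* alone, and *Rad52*, *Ddx50* and *Plekha3* were most alike (r = 0.99 for each), with 34 genes over 0.95. *Cd4* had the smallest excess in WT 2 of the T cell markers, 1.24 times the next library against 2.47 (*Cd3d*) to 6.43 (*Cd8a*). These genes therefore followed *Cd4* and not the T cell markers as a set. For B cells the profile joined *Cd79b*, *Ms4a1* and *Ighm*. *Cdc42ep5*, *Adam4* and *Gpr173* were most alike (r = 0.99 for each), with 123 genes over 0.95. With 6 libraries, 1 of which stands apart, these values are a description.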

How the data were processed

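RNA from heart tissue of 3 WT and 3 *Zeb2* cKO mice was depleted of ribosomal RNA and sequenced from stranded, single-end libraries. Per the methods, reads were aligned and assigned to genes by the authors with the STAR workflow (Gencode M4, GRCm38), and the deposited values are raw counts. The STAR version and strand setting are not given in the sources used here. Groups came from the sample labels, and 0 columns of the table were left unmatched. Each library is a separate mouse.

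From these counts, symbols and positions were taken from Gencode M21 by Ensembl identifier. Library sizes were scaled by TMM factors (edgeR 4.0.16 under R 4.3.3), and genes were filtered with filterByExpr (minimum count 10, minimum total 15). Genotype was tested with glmQLFit and glmQLFTest over all 14746 genes kept, with Benjamini-Hochberg adjustment and a prior count of 0.125 for log2 fold changes. Genes under the filter got a log2 fold change at the common dispersion with no p. DESeq2 1.42.0 was an alternative. Single genes were also compared by exact permutation tests (scipy 1.17.1, Python 3.11.15). Near-identical stretches were found with BLAST 2.17.0 (at least 75 bases, at least 95% identity). The fits were tested on simulated data.

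The markers and gene lists were chosen with earlier results of these data known. The text names all 9 markers, up to 3 genes of each lymphoid list with the smallest p and the 3 genes most alike in pattern. Lists of other cells are given as sums, apart from *Nppa*, named for its unadjusted p under 0.05. Other list genes were chosen after their values were seen and are given by their counts, or by fold change for *Irf4* and *Prdm1*. Some list genes enter the counts and sums of their lists but are not reported here. Depth was 37288174 to 51136331 counts per library, at which markers of a few counts are limited by counting error. Alternatives were RLE factors, no filter, DESeq2, a replicate block, robust dispersions, no mitochondrial genes, a prior count of 2 and leaving out each library.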

Additional observations from a re-analysis of the deposited data

How the results depend on the processing

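No marker was called under any of the 12 alternatives that test genes, nor did any marker reach an unadjusted p under 0.05. Over all genes, DESeq2 called 1 gene where edgeR called 0. The 280 genes with an unadjusted p under 0.05 became 600 without the filter on low counts and 429 with DESeq2, and leaving out 1 library gave 123 (without *Zeb2* cKO 1) to 1134 (without WT 1), with 181 without *Zeb2* cKO 2. The number of markers tested was 4, and 9 without the filter and with DESeq2.

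The median log2 fold change of the T cell markers, -1.17, was between -1.65 and 0.58 when 1 library was left out, above 0 only without WT 2. That of the B cell markers, -0.71, stayed between -1.22 and -0.23. Without WT 2 the log2 fold changes of *Lck* (0.27), *Cd79b* (0.14) and *Ighm* (0.33) changed sign. Leaving out 1 library gave -1.65 to 0.27 for *Lck*, -1.07 to 0.14 for *Cd79b* and -0.75 to 0.33 for *Ighm*. The other markers stayed below 0 when 1 library was left out, at -1.37 to -0.41 for *Ms4a1* (ends without *Zeb2* cKO 3 and WT 1), -1.9 to -0.41 for *Cd79a* (without *Zeb2* cKO 3 and 2) and -0.71 to -0.03 for *Cd4* (without *Zeb2* cKO 1 and 2), except *Cd3e*, *Cd3d* and *Cd8a*, which have no fold change of their own where a group kept 3 counts or fewer, although their fitted values enter the T cell medians. Without WT 2 the medians of the other T cell (0.24), NK cell (0.20), pan-leukocyte (0.06), macrophage (0.02), dendritic cell (0.31), granulocyte (0.01), fibroblast (0.09) and immature lymphocyte (0.23) lists lay above 0.

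Samples with the same replicate number did not deviate together (correlations 0.0878, -0.137 and -0.0869), so the numbers pair no mice. With a replicate block 257 genes had an unadjusted p under 0.05, 0 were called, and the medians were -0.86 for T cell and -0.65 for B cell markers.

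Depth limits *Cd3e*, *Cd3d*, *Cd8a* and *Cd79a* most, since a change of a few counts moves their values. With 3 mice a group and 1 library apart, the 95% intervals of the tested markers reached from -2.1 to 0.81 on the log2 scale.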
